A study of Mus musculus with 20 samples.

Results

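The 8 genes described here carry the signals of leptin, adiponectin and insulin into a cell. They were chosen by name for their place in these pathways, with earlier results of these data known. They are 8 of the 54838 Ensembl genes counted in each library. The leptin arm holds Lepr, Stat3 and Socs3, the adiponectin arm Adipor1 and Adipor2, and the insulin arm Insr, Irs1 and Irs2. RNA came from whole ovaries of 20 female mice aged 77 days, freed of fat and oviduct, with 1 animal per library. The lines were FL1, an outbred Dummerstorf mouse line selected over many generations for high fertility, and ctrl, an unselected line from the same founders. Animals were taken in estrus, when follicles ovulate, or in diestrus, when corpora lutea are active, with 5 animals per line and stage. The design asks whether these genes differ between the lines in each stage, and whether they differ between the stages in each line.

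Leptin and adiponectin are hormones of fat cells, and insulin is released by the pancreas, so the ovary receives all 3 from the blood. Leptin binds its receptor, which has no kinase of its own and works through the kinase JAK2, which phosphorylates the transcription factor STAT3. STAT3 induces SOCS3, which binds the receptor and shuts the signal off. Adiponectin receptors act largely through the adaptor APPL1 and the kinase AMPK. The insulin receptor phosphorylates the docking proteins IRS1 and IRS2, which recruit PI3 kinase and AKT and so keep FOXO1 out of the nucleus. In the ovary these hormones are known to modulate steroid synthesis and follicle growth.

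Levels are given as counts per 1000000 counts (CPM) with TMM library scaling. The 3' mRNA-Seq kit yields reads from 1 end of each transcript, whatever its length, so CPM of different genes compare as transcripts without division by length. Differences are log2 fold changes (log2FC) with their standard error (SE) from edgeR's quasi-likelihood test over all genes, and a gene was called different at an adjusted p of at most 0.05. Depth was 5991223 to 10352718 counts per library. No pair of libraries in a group was alike within sampling noise, with a chi-square per gene from 6.03 to 42.4 over the 40 pairs. In whole-ovary RNA, fewer cells of a type and less RNA per cell cannot be told apart.

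All 8 genes passed the filter on low counts in each comparison. Stat3 was the strongest expressed of them with a mean of 194.2 CPM over the 20 libraries. It was followed by Adipor2 with 158.0 and Adipor1 with 88.6 CPM. Irs1 reached 71.7, Insr 34.6, Irs2 25.9 and Socs3 23.1 CPM. Lepr was the weakest expressed with 8.58 CPM, which is above 29.8% of the genes tested, while Stat3 was above 94.3% of them. Neighbours in this order could not all be told apart. Stat3 and Adipor2, and likewise Irs2 and Socs3, overlapped between libraries in 4 of 4 groups, while Adipor2 and Adipor1, and Irs1 and Insr, overlapped in 0 of 4. Adipor1 and Irs1, and Insr and Irs2, overlapped in 3 groups, and Socs3 and Lepr in 1, ctrl in estrus. Between Irs2 and Socs3, in FL1 in diestrus the mean of Socs3 was the higher (26.9 ± 3.44 against 25.0 ± 4.50 CPM, SD, n = 5).

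Lepr (ENSMUSG00000057722, GRCm38 chromosome 4, 101717404 to 101815352, plus strand) encodes the leptin receptor. Its sequence before the first of its 2 RefSeq starts (GRCm38.p6) is shown because Lepr had the largest log2FC of the 8 genes. It covers chr4:101717157-101717406 on the plus strand, and none of the 5 motifs searched below is in it. The window before the other start, at chr4:101717656-101717905, holds 1 GC box and is not printed.
Lepr: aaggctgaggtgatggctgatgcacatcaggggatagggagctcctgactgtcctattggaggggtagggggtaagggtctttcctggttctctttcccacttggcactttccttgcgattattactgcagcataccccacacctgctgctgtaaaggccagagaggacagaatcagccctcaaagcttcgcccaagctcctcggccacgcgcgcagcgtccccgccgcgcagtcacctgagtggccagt
Adipor1 (ENSMUSG00000026457, chromosome 1, 134415378 to 134433351, plus strand), shown beside it because it separated the lines, has 2 overlapping GC boxes, in capitals, before its first RefSeq start at chr1:134415128-134415377, plus strand.
Adipor1: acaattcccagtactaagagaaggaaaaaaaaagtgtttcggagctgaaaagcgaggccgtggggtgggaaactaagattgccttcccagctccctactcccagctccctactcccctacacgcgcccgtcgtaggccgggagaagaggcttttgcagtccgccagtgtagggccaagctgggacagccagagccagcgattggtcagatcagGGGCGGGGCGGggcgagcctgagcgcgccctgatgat
RefSeq promoters matched 7 of the 8 genes, in 9 windows of 250 bases. The motifs were searched on both strands: the GC box GGGCGG (in 32.7% of all 32851 windows), the E-box CACGTG (6.02%), the STAT site TTCNNNGAA (7.02%), the FOXO site GTAAACA (3.17%) and the estrogen response motif AGGTCA (14%). The GC box was in 7 of the 9 windows and the estrogen response motif in 0 of 9. A match is only a match of letters.

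In estrus, Lepr was weaker expressed in FL1 than in ctrl. The ctrl libraries stood at 10.1, 18.7, 24.9, 12.9 and 16.2 CPM, a mean of 16.5 ± 5.71 (SD, n = 5). The FL1 libraries stood at 6.75, 7.50, 8.07, 9.89 and 7.27 CPM, a mean of 7.89 ± 1.21 (SD, n = 5). Each FL1 value was below each ctrl value, though the highest FL1 library and the lowest ctrl library lay close together. The log2FC was -1.07 (SE 0.24) with an adjusted p of 0.0309. Lepr was the only 1 of the 8 genes called in this comparison, in which 2.33% of all tested genes were called. The groups did not overlap in 2 of the 8, Lepr and Adipor1, against 4.89% of all tested genes. The call was lost in 6 of 10 fits that left out a library (ctrl replicates 2 and 3, FL1 replicates 1, 2, 3 and 5), where the log2FC ran from -1.20 to -0.87 and the adjusted p up to 0.081. It was also lost with limma-voom (adjusted p = 0.0570) and with the replicate block (adjusted p = 0.0600). Counts behind these values were low, from 46 to 191 Lepr counts in an estrus library, and they sum the long and short forms of the receptor.

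In diestrus, Lepr stood at 4.24, 3.83, 4.21, 3.45 and 8.91 CPM in ctrl and at 5.87, 7.58, 3.62, 4.95 and 2.67 CPM in FL1. The ranges overlapped broadly, and the log2FC of FL1 against ctrl was 0.015 (SE 0.34, adjusted p = 0.988). From estrus to diestrus Lepr fell in ctrl by 1.74 on the log2 scale (SE 0.31, adjusted p = 0.00947), from 16.5 ± 5.71 to 4.93 ± 2.25 CPM (SD, n = 5 each). Each diestrus library of ctrl was below each estrus library. This was the only call among the 8 genes in ctrl, where 2.85% of all tested genes were called, and Lepr was also the only 1 of them without overlap, against 4.52%. The call was kept in 10 of 10 fits without a library and in 7 of 7 other settings. In FL1 the same difference was -0.66 (SE 0.26, adjusted p = 0.101), with means of 7.89 and 4.94 CPM. It passed in 1 of 7 other settings, limma-voom (adjusted p = 0.0469). It passed in 1 of 10 fits without a library, that without FL1 replicate 2 in diestrus (-0.87, adjusted p = 0.0412). Both the line difference in estrus and the stage difference in ctrl rest on the same 5 ctrl libraries in estrus. Whether the line difference depended on the stage was tested on its own and was not called (interaction 1.08, SE 0.41, adjusted p = 0.297). With both lines in 1 fit, Lepr was lower in diestrus by a log2FC of -1.20 (SE 0.21, adjusted p = 0.000273), and this held in 20 of 20 fits without a library.

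**Figure D1:**
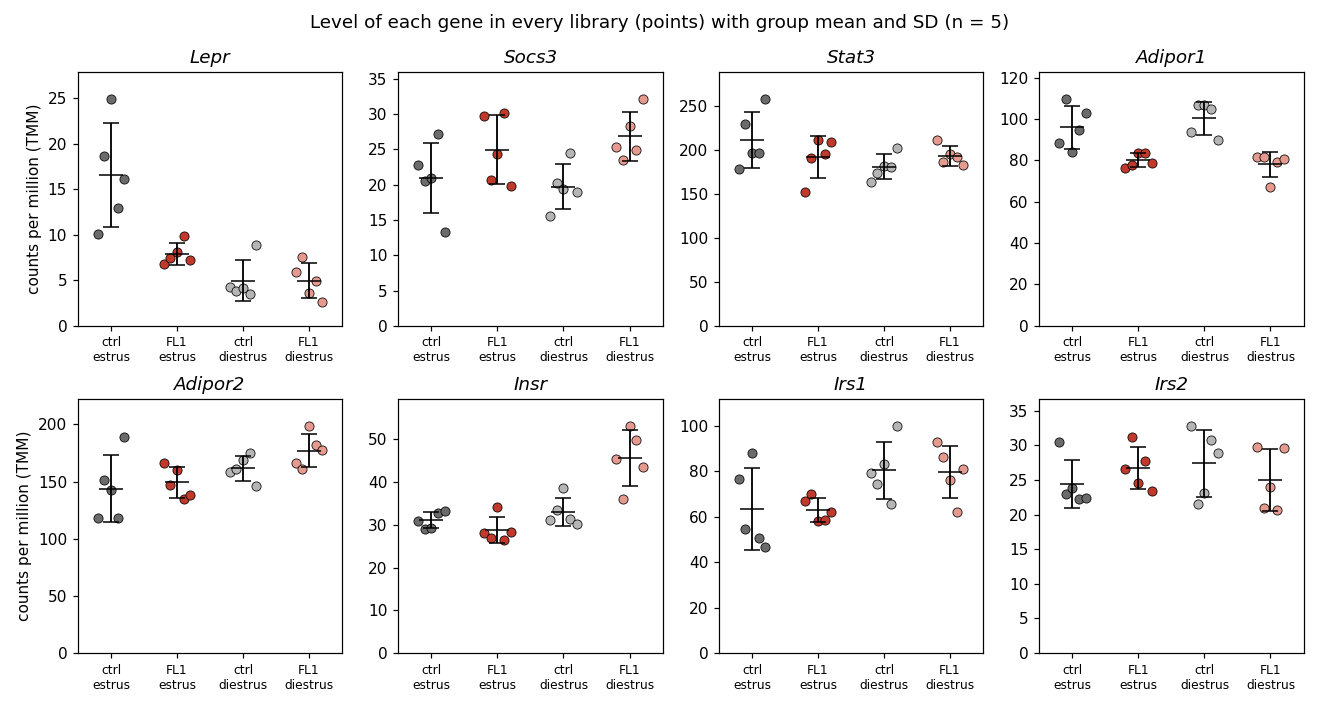
Level of the 8 genes in CPM (TMM) on the y axis of each panel, by line and stage on the x axis. Points are single libraries, each an animal, and bars are the group mean with its SD (n = 5). Lepr is highest in ctrl in estrus (10.1 to 24.9), Adipor1 is lower in both FL1 groups than in both ctrl groups, and Insr is highest in FL1 in diestrus (36.1 to 53.1).

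Stat3 (ENSMUSG00000004040, chromosome 11, 100885098 to 100939540, minus strand), the transcription factor downstream of the leptin receptor, was called in no comparison. It stood between 152.1 and 257.6 CPM in all 20 libraries. Its group means were 211.4 ± 31.7 CPM in ctrl and 191.5 ± 23.7 in FL1 in estrus, and 180.5 ± 14.2 in ctrl and 193.3 ± 11.2 in FL1 in diestrus (SD, n = 5 each). The lines overlapped in both stages. The log2FC of FL1 against ctrl was -0.14 (SE 0.12, adjusted p = 0.623) in estrus and 0.098 (SE 0.080, adjusted p = 0.583) in diestrus. Stat5a, another transcription factor of cytokine receptors, overlaps Stat3 on the other strand, and the strand setting of the counting is not given in the sources used here, so reads of the overlap cannot be assigned.

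Socs3 (ENSMUSG00000053113, chromosome 11, 117966079 to 117970047, minus strand) encodes the feedback inhibitor of leptin and other cytokine receptors. Its RefSeq window lies inside the longer Ensembl gene and holds the STAT site, in capitals, at chr11:117969490-117969542, minus strand. This window is the only 1 of the 9 with a match to that site.
Socs3: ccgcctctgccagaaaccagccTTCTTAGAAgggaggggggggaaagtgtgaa
In diestrus, Socs3 stood at 15.6, 20.3, 19.4, 24.5 and 18.9 CPM in ctrl and at 25.3, 23.5, 28.3, 24.9 and 32.1 CPM in FL1. FL1 was the higher in 24 of the 25 pairs of libraries. The log2FC was 0.45 (SE 0.14), and the gene did not pass over all genes (adjusted p = 0.0960). In estrus, the means were 20.97 ± 5.00 CPM in ctrl and 24.9 ± 4.88 in FL1 (SD, n = 5 each) with broad overlap, and the log2FC was 0.24 (SE 0.19, adjusted p = 0.592). Over both stages in 1 fit it was 0.34 (SE 0.12, adjusted p = 0.0854). Socs3 passed there in 1 of 20 fits without a library, that without ctrl replicate 4 in estrus (0.40, adjusted p = 0.0417). It passed in 0 of 6 other settings. Its stage differences were -0.095 (SE 0.19) in ctrl and 0.11 (SE 0.14) in FL1, with adjusted p of 0.871 and 0.664.

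Adipor1 encodes the adiponectin receptor usually tied to AMPK. It was weaker expressed in FL1 than in ctrl in diestrus and was below ctrl in estrus too, without overlap of the lines in either stage. In diestrus, ctrl libraries stood at 93.8, 106.6, 106.6, 104.7 and 89.9 CPM, a mean of 100.3 ± 7.91 (SD, n = 5). FL1 libraries stood at 81.6, 81.6, 67.1, 79.3 and 80.6 CPM, a mean of 78.0 ± 6.20 (SD, n = 5). The highest FL1 library was thus below the lowest ctrl library. The log2FC was -0.36 (SE 0.087) with an adjusted p of 0.0308. In this comparison 4.11% of all tested genes were called, and 2 of the 8, Adipor1 and Insr. Groups without overlap were found in 1 of the 8, Adipor1, and in 5.45% of all tested genes. The call was kept in 3 of 10 fits without a library (log2FC from -0.40 to -0.31). It was lost without ctrl replicates 2, 3 or 4 or FL1 replicates 1, 3, 4 or 5 (adjusted p up to 0.0825), and with the replicate block (adjusted p = 0.0706).

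In estrus, Adipor1 stood at 88.4, 109.6, 84.2, 94.9 and 102.7 CPM in ctrl and at 76.5, 77.8, 83.6, 83.7 and 78.7 CPM in FL1. The ctrl libraries spread more widely, and the lowest of them lay just above the highest of FL1. The log2FC was -0.26 (SE 0.095), which did not pass over all genes (adjusted p = 0.190). The 2 stages use different animals, so these are separate measurements of the same line difference. Taken over both stages in 1 fit of the 20 libraries, a comparison added after the data were seen, Adipor1 was lower in FL1 by a log2FC of -0.31 (SE 0.061, adjusted p = 0.00211). It was the only 1 of the 8 genes called there, against 7.56% of all tested genes. The call was kept in 20 of 20 fits without a library, with log2FC from -0.33 to -0.28, and in 6 of 6 other settings. Over the stages together, the 10 FL1 libraries ranged from 67.1 to 83.7 CPM and the 10 ctrl libraries from 84.2 to 109.6 CPM. This separation across the stages depended on the TMM scaling. By total counts, FL1 replicate 4 in estrus (86.1 CPM) was above ctrl replicate 5 in diestrus (85.3 CPM). Within each stage the lines did not overlap by total counts either. The stage difference was not called in either line (log2FC 0.068 with adjusted p = 0.820 in ctrl, and -0.035 with adjusted p = 0.816 in FL1, SE 0.10 and 0.082).

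Adipor2 (ENSMUSG00000030168, chromosome 6, 119353150 to 119417704, minus strand), the adiponectin receptor usually tied to PPAR alpha, was not called between the lines. In estrus it stood at 118.4, 151.3, 142.5, 118.1 and 188.8 CPM in ctrl and at 166.0, 147.2, 160.1, 135.0 and 138.0 CPM in FL1. In diestrus it stood at 158.4, 160.9, 169.1, 174.6 and 145.7 CPM in ctrl and at 166.6, 161.0, 198.3, 181.9 and 177.5 CPM in FL1. The lines overlapped in both stages. The log2FC of FL1 against ctrl was 0.053 (SE 0.13, adjusted p = 0.888) in estrus and 0.13 (SE 0.082, adjusted p = 0.455) in diestrus. From estrus to diestrus it was 0.25 (SE 0.085) in FL1 with an adjusted p of 0.0592, and 24 of 25 pairs were higher. That difference was called in 2 of 7 other settings, DESeq2 and limma-voom (adjusted p = 0.0457 and 0.0213). It was also called in 3 of 10 edgeR fits without a library (lowest adjusted p = 0.0367). These left out FL1 replicate 1 or 3 in estrus or 2 in diestrus. Its RefSeq window lies in an intron of the longer Ensembl gene and holds a FOXO site, in capitals, at chr6:119388878-119388928, minus strand, shown because FOXO factors are held back by insulin.
Adipor2: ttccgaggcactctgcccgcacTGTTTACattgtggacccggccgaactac
The ratio of Adipor2 to Adipor1 within a library put these values together. Its median was 1.38 in ctrl (1.25 to 1.84) and 1.89 in FL1 (1.61 to 2.17) in estrus, which overlap. In diestrus it was 1.62 in ctrl (1.51 to 1.69) and 2.20 in FL1 (1.97 to 2.96), which do not. Transcripts of Adipor2 were the more abundant in each of the 20 libraries.

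**Figure D2:**
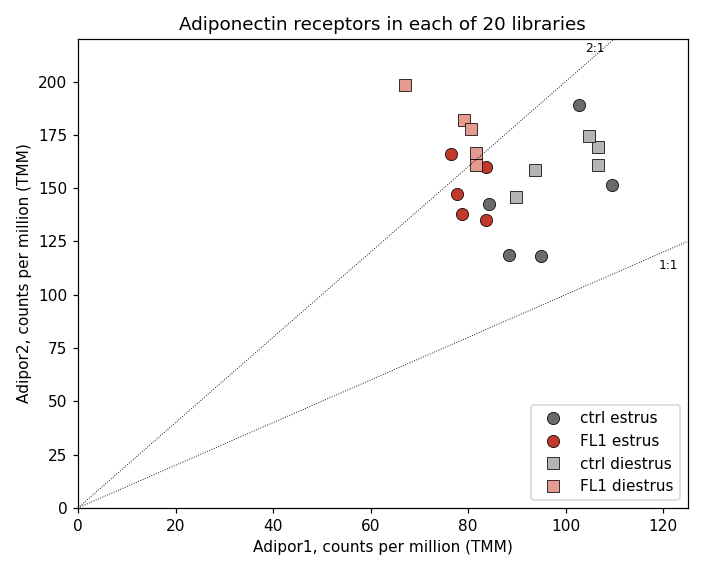
CPM of Adipor2 (y axis) against CPM of Adipor1 (x axis) in each of the 20 libraries, with circles for estrus, squares for diestrus, grey for ctrl and red for FL1. Dotted lines mark equal levels (1:1) and 2 times as much Adipor2 (2:1). With TMM scaling, all FL1 points lie left of all ctrl points, at 67.1 to 83.7 CPM of Adipor1, which does not hold by total counts.

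Insr (ENSMUSG00000005534, chromosome 8, 3122061 to 3279617, minus strand), the insulin receptor, reached its highest level in FL1 in diestrus. In diestrus, ctrl stood at 31.2, 33.5, 38.6, 31.4 and 30.3 CPM, a mean of 33.0 ± 3.34 (SD, n = 5). FL1 stood at 45.4, 36.1, 53.1, 49.96 and 43.6 CPM, a mean of 45.6 ± 6.50 (SD, n = 5). FL1 was the higher in 24 of 25 pairs, with the lowest FL1 library below the highest of ctrl. The log2FC was 0.47 (SE 0.12, adjusted p = 0.0385). It was kept in 2 of 10 fits without a library (0.41 to 0.54). It was lost without ctrl replicates 1, 2, 4 or 5 or FL1 replicates 1, 3, 4 or 5 (adjusted p up to 0.105), and with limma-voom (adjusted p = 0.0563).

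In estrus, Insr stood at 30.8, 29.1, 29.3, 32.8 and 33.2 CPM in ctrl and at 28.2, 26.8, 34.2, 26.6 and 28.3 CPM in FL1. The lines overlapped, with a log2FC of -0.11 (SE 0.12, adjusted p = 0.714). From estrus to diestrus Insr rose in FL1 by 0.66 on the log2 scale (SE 0.12, adjusted p = 0.00123), and each diestrus library was above each estrus library. In FL1, 15.9% of all tested genes were called between the stages, and 2 of the 8, Insr and Irs1. Groups without overlap were found in 1 of the 8, Insr, and in 12.2% of all tested genes. The call of Insr was kept in 10 of 10 fits without a library (0.60 to 0.74) and in 7 of 7 other settings. In ctrl the stage difference was 0.089 (SE 0.11, adjusted p = 0.784). The interaction of line and stage was 0.57 (SE 0.16), which did not pass over all genes (adjusted p = 0.140). The line difference in diestrus and the stage difference in FL1 share the 5 FL1 libraries in diestrus.

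The interaction was called for 0 of the 8 genes by edgeR, and likewise by DESeq2 and limma-voom, against 0.0565% of all genes tested by edgeR. At an unadjusted p under 0.05 there were 2 with each tool, Lepr and Insr, against 11.7% of all genes by edgeR.

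**Figure D3:**
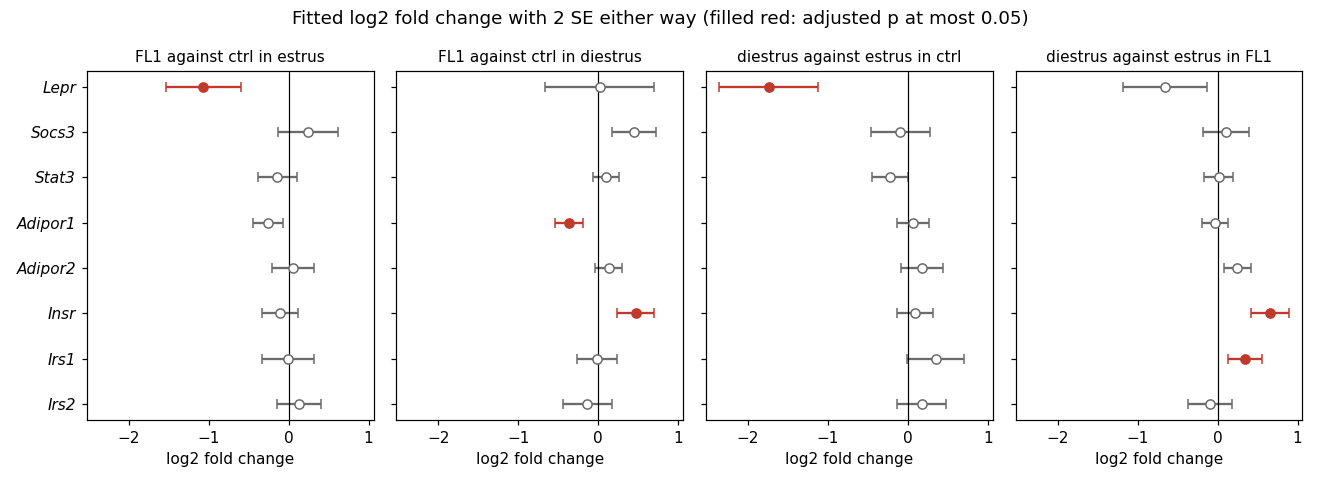
Log2 fold change of the 8 genes (x axis) in the 4 comparisons of 5 against 5 libraries, with bars of 2 SE either way. Filled red points are calls at an adjusted p of at most 0.05: Lepr in estrus, Adipor1 and Insr in diestrus, Lepr between the stages of ctrl, and Insr and Irs1 between the stages of FL1.

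Irs1 (ENSMUSG00000055980, chromosome 1, 82233101 to 82291416, minus strand) and Irs2 (ENSMUSG00000038894, chromosome 8, 10984681 to 11008458, minus strand) encode the docking proteins that the insulin and IGF1 receptors phosphorylate. Their promoters are shown because both hold an E-box, in capitals, inside a shared run of 10 bases, at chr1:82291527-82291576 for Irs1 and chr8:11008946-11008995 for Irs2, each read on the minus strand.
Irs1: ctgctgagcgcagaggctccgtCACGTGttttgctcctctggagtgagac
Irs2: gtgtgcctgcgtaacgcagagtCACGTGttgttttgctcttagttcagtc
These were the only 2 of the 9 windows with an E-box. Irs1 was the more abundant transcript, with a median ratio of Irs1 to Irs2 within a library from 2.36 in FL1 in estrus to 3.46 in ctrl in diestrus.

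Irs1 rose from estrus to diestrus in FL1. Its FL1 libraries stood at 66.8, 70.2, 58.1, 58.4 and 62.0 CPM in estrus and at 92.9, 86.4, 76.3, 62.3 and 81.1 CPM in diestrus. The diestrus library was the higher in 23 of 25 pairs. The log2FC was 0.34 (SE 0.11, adjusted p = 0.0384). The call was kept in 3 of 10 fits without a library (0.28 to 0.42). It was lost without estrus replicates 3, 4 or 5 or diestrus replicates 1, 2, 3 or 5 (adjusted p up to 0.098), and with all 20 libraries in 1 fit (adjusted p = 0.163). In ctrl, Irs1 stood at 76.8, 54.6, 88.2, 50.7 and 46.8 CPM in estrus and at 79.4, 74.4, 83.2, 65.8 and 99.9 CPM in diestrus. The estrus libraries of ctrl fell into a wide range and overlapped those in diestrus. The log2FC of 0.35 (SE 0.18) was of the size seen in FL1 but did not pass (adjusted p = 0.380), and the interaction was -0.0047 (SE 0.22). Over both lines in 1 fit, Irs1 was higher in diestrus by 0.34 (SE 0.11, adjusted p = 0.0330), which was kept in 12 of 20 fits without a library. The highest adjusted p, over the 8 fits that lost it (ctrl replicates 2 and 4 and FL1 replicates 3, 4 and 5 in estrus, ctrl replicate 5 and FL1 replicates 1 and 2 in diestrus), was 0.0665. There, 3 of the 8 genes were called, Lepr, Insr and Irs1, against 15.9% of all tested genes. Between the lines Irs1 was not called, with a log2FC of -0.010 (SE 0.16) in estrus and -0.014 (SE 0.12) in diestrus.

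Irs2 was called in no comparison. Its group means were 24.4 ± 3.43 CPM in ctrl and 26.7 ± 3.02 in FL1 in estrus, and 27.4 ± 4.88 in ctrl and 25.0 ± 4.50 in FL1 in diestrus (SD, n = 5 each). The lowest library stood at 20.7 and the highest at 32.7 CPM. The log2FC of FL1 against ctrl was 0.13 (SE 0.14, adjusted p = 0.718) in estrus and -0.14 (SE 0.15, adjusted p = 0.708) in diestrus.

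Transcripts of the hormones themselves were scarce in these ovaries. Lep, which encodes leptin, had 0 counts in 17 libraries and 5, 1 and 2 counts in the other 3 (ctrl replicate 5 in estrus, ctrl replicate 5 in diestrus and FL1 replicate 1 in diestrus). Adipoq, which encodes adiponectin, ran from 0 to 13.0 CPM in ctrl and from 0.738 to 5.58 CPM in FL1 in estrus, and from 0 to 3.62 and 0.283 to 4.45 CPM in diestrus. The highest value, 74 counts, was in ctrl replicate 5 in estrus. Ins1 and Ins2, the insulin genes, had 0 counts in each of the 20 libraries, which allows up to 0.290 to 0.501 CPM (3 counts of a library's total, counting error only). Lists of other cells were read beside these values. Fat markers (8 genes with Adipoq and Lep) summed to 59.9 to 149.8 CPM in ctrl and 102.8 to 180.4 in FL1 in estrus, and to 60.6 to 92.3 and 48.1 to 111.1 in diestrus, and 4 of the 8 passed the filter on low counts between the lines. In ctrl in diestrus, Pparg (mean 43.7 CPM) and Plin1 (25.6) stood far above the others, of which Fabp4 was highest (3.75). Of genes failing the filter, Retn had a lower mean in FL1 in estrus (1.98 against 1.17 CPM) and Cidec a higher one (0.528 against 2.14). Adipoq was lower by mean (2.86 against 2.63) but higher by median (0.522 against 2.25). Of the 4 oviduct markers, 0 passed it.

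Of the 62 tested marker genes of 10 lists (granulosa, luteal, theca, oocyte, fat, oviduct, blood, macrophage, endothelial, immediate early), 0 were called between the lines in estrus by edgeR, where Lepr was lower, and 13 had an unadjusted p under 0.05, against 2.33% and 15.9% of all tested genes. All 6 endothelial markers were on the lower side in FL1 (median log2FC -0.37). The medians of theca (-0.39), macrophage (-0.31) and luteal markers (-0.11) were below 0 too. Of these, 1 of 3, 3 of 8 and 3 of 8 were on the higher side. On the higher side were all 8 oocyte (0.32), all 4 tested fat (0.60), all 5 blood (0.29), 6 of 7 granulosa (0.39) and 9 of 13 immediate early markers (0.27). In each of these lists 0 were called by edgeR. Some markers spread widely among the ctrl libraries, with Cyp19a1 from 1.06 to 16.7 and Cfd from 0.662 to 66.3 CPM. Of all 20 libraries, ctrl replicate 5 in estrus had the fewest genes with a count (17484) and the lowest TMM factor (0.904). It also had the most Adipoq (13.0 CPM). Without it, 418 genes were called in estrus, against 311 with it. The marker lists were not refitted without it. Endothelial markers summed to 246.6 to 431.1 CPM in ctrl and 206.7 to 277.4 in FL1, and oocyte markers to 155.9 to 333.0 and 221.2 to 531.3. In diestrus, where Adipor1 was lower and Insr higher in FL1, 4 of 63 were called, against 4.11% of all tested genes, and all 4 were higher in FL1. They were Lhcgr, the luteinizing hormone receptor (log2FC 1.43, SE 0.32, adjusted p = 0.0209), Foxl2, a granulosa cell factor (0.53, SE 0.11, adjusted p = 0.0132), Cd68 of macrophages (0.79, SE 0.21, adjusted p = 0.0467) and Hba-a2, a hemoglobin gene with a near-identical copy, so that its count is uncertain (4.77, SE 0.66, adjusted p = 0.00101). Their lists as a whole had 5 of 8 luteal (median 0.021), 5 of 7 granulosa (0.027), 3 of 8 macrophage (-0.072) and 5 of 5 blood markers (0.42) on the higher side in FL1. In the paper's qPCR of diestrus ovaries, Lhcgr was higher in FL1 too. Foxl2 was not, with a slightly negative log2FC that bears no mark of significance. Between the stages of ctrl, where Lepr fell, 4 of 61 were called, against 2.85% of all tested genes. Between the stages of FL1, where Insr and Irs1 rose, 24 of 64 were called, against 15.9%. Higher in diestrus were 7 of 8 luteal, 4 of 6 endothelial, 4 of 5 blood, 3 of 7 granulosa, 3 of 13 immediate early and 1 of 3 theca markers. Lower were 1 of 8 oocyte markers (Bmp15, list median -0.36) and 1 of 6 fat markers (Fabp4, list median -1.0). Summed luteal markers ranged from 19305 to 37608 CPM in estrus and from 38897 to 51012 in diestrus in FL1. In ctrl, where Insr was not called, they ranged from 16494 to 43746 and from 33115 to 56702 CPM. Over both stages in 1 fit, where Adipor1 was lower in FL1, 6 of 66 were called, against 7.56% of all tested genes. Inhba, Lhcgr, Fabp4, Hba-a2 and Cd68 were higher in FL1, and Csf1r was lower. Over both lines in 1 fit, 27 of 66 were called between the stages, against 15.9%. The part of these cell types in the results was not tested.

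Beyond the 8 genes, 71 other genes of the pathways were listed (20 for leptin and JAK-STAT, 15 for adiponectin and AMPK, 36 for insulin and PI3K), and 69 were tested. Between the lines, 1 was called in each stage (1.45%, against 2.33% of all tested genes in estrus and 4.11% in diestrus), Prkag2, which encodes a regulatory subunit of AMPK. It averaged 39.6 ± 7.71 CPM in ctrl and 59.5 ± 7.78 in FL1 in estrus, and 47.6 ± 5.60 and 71.3 ± 4.98 in diestrus (SD, n = 5 each). Its libraries overlapped in estrus but not in diestrus. The log2FC was 0.58 in both stages (SE 0.14, adjusted p = 0.0412 in estrus, and SE 0.098, adjusted p = 0.00391 in diestrus). Over both stages in 1 fit, 2 of the 69 were higher in FL1 and 2 lower (5.8%, against 7.56% of all tested genes). The higher were Prkag2 (0.58, adjusted p = 7.25e-05) and Pik3r1 (0.48), and Tsc2 (-0.36) was among the lower. The median log2FC of the 69 was -0.068 in estrus and 0.036 in diestrus. The next step of each arm did not pass in either stage: Jak2 had a log2FC of -0.20 in estrus and 0.032 in diestrus, Appl1 of -0.018 and -0.040, Prkaa1 of -0.11 and -0.050, and Akt1 of 0.037 and -0.22. Igf1r, the receptor closest to Insr, had -0.33 and 0.11, Pik3r1, a regulatory subunit of PI3 kinase, 0.43 and 0.52, and Foxo1 0.19 and -0.22.

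Between the stages of ctrl, 2 of the 69 were higher in diestrus and 1 lower (4.35%, against 2.85% of all tested genes). These were Foxo1, the transcription factor that insulin holds back (0.85, SE 0.20, adjusted p = 0.0408), Grb14, which binds and inhibits the insulin receptor (0.78, SE 0.18, adjusted p = 0.0377), and Grb10, a relative of it (-0.58, SE 0.12, adjusted p = 0.0230). In FL1, 9 were higher and 2 lower in diestrus, which is 15.9% of the 69, as of all tested genes. On the leptin side they were Cish (1.46), Ptpn1 (0.44) and Lifr (0.42), of which CISH and the phosphatase PTP1B act as brakes on cytokine receptors. On the adiponectin side Ppara (0.75) and Acaca (0.39) rose. On the insulin side Igf1r rose with Insr (0.62, SE 0.10, adjusted p = 0.000318), from 201.3 ± 24.8 to 309.3 ± 28.3 CPM (SD, n = 5 each), as did Pik3r1 (0.46), Sos1 (0.44) and Gsk3b (0.39). Slc2a1, a glucose transporter (-0.74), and Enpp1, an inhibitor of the insulin receptor (-0.69), fell. Over both lines in 1 fit, 9 of the 69 were higher and 6 lower in diestrus (21.7%, against 15.9%). The interaction was called for 0 of the 69 by edgeR, with 15 at an unadjusted p under 0.05, against 11.7% of all tested genes.

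**Figure D4:**
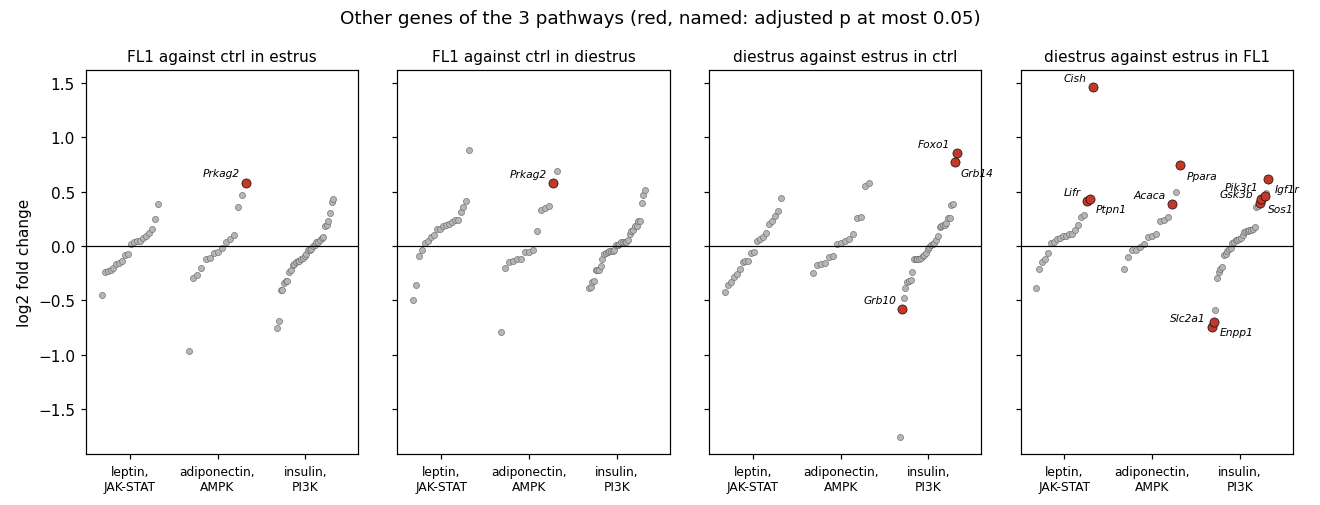
Log2 fold change (y axis) of the 69 tested genes of the 3 pathway lists, sorted by value within each list (x axis), in the 4 comparisons. Red named points passed an adjusted p of 0.05: 1 in each comparison of the lines, 3 between the stages of ctrl and 11 between the stages of FL1.

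Genes that STAT3 and FOXO are known to induce or repress were counted beside the arms. Whether they follow leptin or insulin signals in the ovary was not tested. Of 10 STAT3 targets, 0 were called between the lines in estrus or in diestrus by edgeR, with 2 at an unadjusted p under 0.05 in each stage. Between the stages of ctrl 0 were called, with 1 at an unadjusted p under 0.05. Of all tested genes, 2.33% in estrus, 4.11% in diestrus and 2.85% between the stages of ctrl were called. In the same order, 15.9%, 17.7% and 15.4% had an unadjusted p under 0.05. Between the stages of FL1, Junb (0.71) and Vegfa (0.58) rose and Timp1 (-1.29) fell in diestrus, 3 of 10 against 15.9% of all tested genes. Over both stages, Ccnd1, which encodes cyclin D1, was lower in FL1 (-0.53, SE 0.13, adjusted p = 0.0108), 1 of 10 against 7.56%. Of 11 tested FOXO targets, 0 were called between the lines in either stage (0 and 3 at an unadjusted p under 0.05). Between the stages of ctrl 0 were called, with 3 at an unadjusted p under 0.05. In FL1, Sesn3 (1.24, SE 0.11, adjusted p = 1.38e-06) and Trib1 (0.85) rose and Cited2 (-0.41) fell in diestrus, 3 of 11 against 15.9%. The targets were listed for their known regulation in other tissues.

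For each of the 8 genes, the genes most alike over the 20 libraries were named by Pearson's r of log2 CPM, as a description without a test, since the libraries share the groups. Lepr was most like Alpl, a phosphatase (r = 0.899), and Doc2b (0.886). Insr was most like Cat, which encodes catalase (0.935), and Acbd5 (0.912), both of peroxisomes. Adipor1 was most like Tchhl1 (0.889) and Thnsl2 (0.869), Adipor2 like Cd151 (0.840) and Cd300lg (0.837), and Stat3 like Vps37b (0.851) and Hip1 (0.844). Irs1 was most like Usp6nl (0.853) and Max (0.817), which dimerises with MYC at E-boxes. Socs3 reached only 0.790 with Topbp1 and 0.768 with Mbtd1, and Irs2 0.740 with Foxp2 and 0.735 with Pycr1. None of the 8 was among the genes most like another of the 8.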

How the data were processed

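The 20 libraries were grouped by line and stage from the sample titles. The label for the source names FL1 in ctrl libraries too and was left aside. The authors prepared QuantSeq 3' mRNA-Seq libraries, aligned the reads with STAR to GRCm38 and deposited raw counts of uniquely assigned reads per Ensembl gene, and the submitters' processing notes also list Cuffdiff. The counter, its strand setting and the use of molecular identifiers are not given in the sources used here. The paper tested counts with DESeq2.

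Counts were tested with edgeR 4.0.16 (glmQLFit, glmQLFTest, R 4.3.3), TMM, filterByExpr with a minimum count of 10, fitted on all genes and adjusted by the Benjamini-Hochberg method. The SE is the absolute log2FC over the root of the F statistic. P-values measure the spread between animals. Alternatives were DESeq2 1.42.0, limma-voom (limma 3.58.1) with sample weights, RLE size factors, other filters, all 20 libraries in 1 fit, a block for the replicate number, and leaving out single libraries, which were run for the 8 genes and the counts of calls. The comparisons over both stages and over both lines were added after seeing the data. The tests were checked on simulated data.

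The 8 genes and all lists (ligands, 3 pathways, STAT3 and FOXO targets, 10 marker lists) were chosen with earlier results of these data known. Pathway genes were named where they passed in a comparison within a stage or line, along with 7 fixed steps, 1 listed gene is not reported here, and the 2 genes most alike were taken by Pearson's r of log2 CPM with a prior count of 2. Depth was 5991223 to 10352718 counts per library, median 6957533. Gene positions came from GENCODE M21, and promoter sequences from RefSeq (GRCm38.p6), 250 bases before the start. The motifs were chosen after the sequences were seen. Python 3.11.15 with pandas 2.3.3 was used for summaries.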

Additional observations from a re-analysis of the deposited data

Results flagged for a closer look

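In 4 of the 32 sets of 5 libraries (8 genes in 4 groups) 1 library stood apart from the other 4 by Dixon's criterion, which chance alone meets in about 1 of 20 sets. Lepr in ctrl in diestrus was 8.91 CPM in replicate 5 against 3.45 to 4.24 in the others. Adipor1 in FL1 in diestrus was 67.1 CPM in replicate 3 against 79.3 to 81.6. Insr in FL1 in estrus was 34.2 CPM in replicate 3 against 26.6 to 28.3. Irs2 in ctrl in estrus was 30.4 CPM in replicate 1 against 22.3 to 23.9. Without the first of these, Lepr kept its call between the stages of ctrl. Without the next, Adipor1 kept its call over both stages but lost it in diestrus (log2FC -0.31, adjusted p = 0.0825). Without the one of Insr, its call between the stages of FL1 was kept.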

How the results depend on the processing

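At an adjusted p of at most 0.05, Lepr between the stages of ctrl, Insr between the stages of FL1, Adipor1 over both stages, and Lepr and Insr over both lines passed in each setting tried. Lepr in estrus, Adipor1 and Insr in diestrus and Irs1 between the stages did not. Among log2FC of the 8 genes, 347 of the values under other settings kept direction and call, 5 became weaker, 4 stronger and 12 changed sign. With 1 library left out, 699 kept both, 36 became weaker, 6 stronger and 59 changed sign. All 32 group means by total counts stayed within 1 SD. The causes were not tested.

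Of the 8 genes in estrus, 0 were called with limma-voom and 0 with the replicate block, against 430 and 230 of all 13374 tested genes. In diestrus it was 1 with limma-voom (Adipor1) and 1 with the replicate block (Insr), against 567 and 498 of all 13259. Between the stages of FL1 it was 4 with limma-voom, against 2320 of all 13350, and 1 with all 20 libraries in 1 fit, against 1520 of all 14154. With 1 library left out, the count ran from 0 to 1 in estrus, 0 to 2 in diestrus, 1 to 3 between the stages of FL1 and 1 to 2 between the lines over both stages. In the same order, these fits called 175 to 418, 349 to 594, 1582 to 2316 and 856 to 1150 of all tested genes.

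Counts over all genes moved more. In estrus 311 genes became 477 with at least 1 count in total as the filter, 670 with DESeq2 and 531 with all 20 libraries in 1 fit, and 175 to 418 without a library. In diestrus 545 became 846 and 891 with the first 2 of these, and 349 to 594 without a library. Between the stages of ctrl 380 became 771 with DESeq2, 655 with limma-voom and 909 with all 20 libraries, and 176 to 516 without a library. For the interaction 8 became 17 with the weak filter, 148 with DESeq2 and 31 with limma-voom, and 0 to 15 without a library.

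Changes of sign concerned differences near 0. For Irs1 the log2FC became 0.0028 in estrus with at least 10 counts in every library and 0.029 with the replicate block, and with limma-voom 0.023 in diestrus and 0.056 in the interaction. Between the lines over both stages, Irs2 became 0.0019 with the weak filter, 0.0018 with the strict filter, 0.0098 with limma-voom and 0.0046 with the replicate block, and Stat3 0.014 with limma-voom. Between the stages over both lines, Socs3 became -0.0030 with the strict filter and -0.037 with limma-voom, and Irs2 -0.0047 with limma-voom. Without a library, the log2FC in estrus ran from -0.013 to 0.18 for Adipor2 and -0.096 to 0.14 for Irs1, and in diestrus from -0.20 to 0.33 for Lepr and -0.079 to 0.074 for Irs1. Between the stages it ran from -0.22 to 0.019 for Socs3 in ctrl, and in FL1 from -0.062 to 0.048 for Stat3 and -0.055 to 0.015 for Adipor1. In the interaction it ran from -0.15 to 0.085 for Irs1 and -0.042 to 0.14 for Adipor2. Between the lines over both stages it ran from -0.054 to 0.064 for Irs1, -0.041 to 0.043 for Irs2 and -0.048 to 0.021 for Stat3. Between the stages over both lines it ran from -0.0080 to 0.044 for Adipor1, -0.053 to 0.060 for Socs3 and -0.00092 to 0.083 for Irs2.

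Same-numbered libraries are different animals, and their deviations from the group means correlated from -0.095 to 0.126, so they were not paired. The fewest counts of Lepr in a library were 16.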
